A study of Mus musculus with 3 samples.

Results

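The 8 genes Alb, Afp, Apoa1, Ttr, Serpina1a, Hnf4a, Foxa2 and Foxa3, which mark hepatocytes and their precursors, were followed through chromatin accessibility of single nuclei from mouse embryos. They were a fixed list of 5 genes for plasma proteins and 3 for transcription factors, out of 21593 protein-coding genes counted. This list, and the marker lists used below, were chosen with earlier results of these data known. The data were single-nucleus ATAC-seq, in which the transposase Tn5 inserts sequencing adapters into open DNA, from wild-type C57BL/6JRj embryos of 3 stages, named by days of development as E12.5, E13.5 and E15.5, with 1 library each. The embryos were littermates of those that the study profiled spatially. Nuclei came from several frozen sections per stage, were stained with 7-AAD and sorted, and the sources used here do not give the number of embryos behind a library. Stage, library and plane of section cannot be told apart, and in sums over nuclei neither can more nuclei of a type and more fragments per nucleus.

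The deposited cell table held 1879 nuclei (153, 970 and 756 in stage order) in 12 clusters numbered by the authors. Clusters 2 and 4, which were shallow, were set aside, and the other 10 held 1450 nuclei. Cluster 8 held 92 of these (2 from E12.5, 52 from E13.5 and 38 from E15.5), with a median of 79482.5 unique fragments per nucleus. The other 9 clusters held 1358 nuclei with a median of 70480 fragments and are called the rest below. The cluster numbers belong to these same nuclei, so cluster 8 against the rest is a description without a test, and 1 library per stage allows no test between stages. Intervals are exact 95% intervals (Poisson for sums, Clopper-Pearson for shares, conditional binomial for ratios) and cover counting error only, and a count of 0 is given the limit of 3 counts. Nuclei were not treated as replicates of a stage, since those of a library come from the same embryo material.

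In the embryo the liver buds from the foregut endoderm, and its hepatoblasts secrete plasma proteins before they mature into hepatocytes and bile duct cells. The FOXA factors bind nucleosomal DNA at liver genes early, as pioneer factors, and the nuclear receptor HNF4A is needed for the hepatocyte programme that follows. The fetal liver is also a site of blood formation, so hepatoblasts there lie among blood cells and endothelium.

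The promoters of the plasma protein genes are short sequences in which liver-enriched factors are known to bind, and 4 of them are shown because they belong to the genes described first. Foxa3 is shown beside them because its ratio differed from theirs. The sequences are from RefSeq on build GRCm38.p6, 5′ to 3′ on the strand of the gene, and each ends before the annotated start of transcription. Capitals mark matches to a core bound by HNF1 (GTTAAT), FOXA (TGTTTAC or TGTTTGC), HNF4A (CAAAGTCCA) or C/EBP (TTGCNNAA), searched on both strands, and to the TATA box (TATAAA) on the strand of the gene.
Alb: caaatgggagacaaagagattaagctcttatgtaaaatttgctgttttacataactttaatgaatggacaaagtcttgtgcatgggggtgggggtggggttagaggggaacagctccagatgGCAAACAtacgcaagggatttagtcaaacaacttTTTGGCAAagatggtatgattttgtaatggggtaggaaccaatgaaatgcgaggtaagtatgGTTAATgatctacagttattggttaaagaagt
Afp: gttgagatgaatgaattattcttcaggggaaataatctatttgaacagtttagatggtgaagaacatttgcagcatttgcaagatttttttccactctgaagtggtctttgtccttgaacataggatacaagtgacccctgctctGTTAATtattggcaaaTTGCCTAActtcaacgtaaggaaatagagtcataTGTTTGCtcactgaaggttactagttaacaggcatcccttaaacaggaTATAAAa
Apoa1: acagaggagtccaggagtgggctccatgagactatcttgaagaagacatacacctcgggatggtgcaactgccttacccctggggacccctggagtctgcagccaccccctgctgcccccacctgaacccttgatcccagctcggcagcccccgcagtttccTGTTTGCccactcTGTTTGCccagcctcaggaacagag
Serpina1a: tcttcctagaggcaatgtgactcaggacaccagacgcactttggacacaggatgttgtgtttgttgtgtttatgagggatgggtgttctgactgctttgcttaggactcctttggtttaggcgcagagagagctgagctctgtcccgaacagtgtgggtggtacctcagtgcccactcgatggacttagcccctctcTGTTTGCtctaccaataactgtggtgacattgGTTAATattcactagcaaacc
Foxa3: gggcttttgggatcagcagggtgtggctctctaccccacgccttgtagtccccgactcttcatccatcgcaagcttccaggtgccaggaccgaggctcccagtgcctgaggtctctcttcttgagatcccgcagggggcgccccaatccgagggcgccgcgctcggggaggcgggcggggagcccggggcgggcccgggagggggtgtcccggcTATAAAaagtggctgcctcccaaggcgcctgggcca
These lie at chr5:90460620-90460869 (Alb, plus strand), chr5:90490464-90490713 (Afp, plus strand), chr9:46228380-46228579 (Apoa1, plus strand), chr12:103863620-103863869 (Serpina1a, minus strand) and chr7:19023540-19023789 (Foxa3, minus strand). Sequences of 7 of the 8 genes were matched in the RefSeq table, Ttr being the other, and they had 10 annotated promoters in all. Over the 250 bases before the start, the HNF1 core was found in 5 of the 10 and in 6.43% of all 32851 promoters searched. The FOXA core TGTTTGC was found in 4 of the 10 and in 4.30% of all, and Apoa1 held it 2 times. TGTTTAC was found in 0 of the 10 (3.17% of all) and CAAAGTCCA in 0 (0.384% of all). The C/EBP core was found in 2 of the 10, Alb and Afp (9.56% of all), and the TATA box in 2, Afp and Foxa3 (7.59% of all). A match is a string of letters in this window and not a measured binding site.

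Fragments were first counted at promoters, from 1000 bp upstream to 100 bp downstream of the annotated start, and given as CPM, the count per 1000000 promoter fragments in the same nuclei. Of the 8 member promoters, 7 were at least 1.5-fold higher in cluster 8 than in the rest with the libraries pooled, all but Foxa3. Over all 20276 promoters with enough fragments, 15.2% passed the same fold. The lower bound of the counting interval was above 1 for the same 7 members, against 13.7% of all promoters. All 8 members passed the minimum of 10 fragments.

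Afp, the fetal counterpart of albumin, stood out most. Its gene lies at chr5:90490737-90508907 (plus strand), and its promoter had 50.1 CPM in cluster 8 at E13.5 and 19.3 at E15.5, against 2.82 and 2.05 in the rest. The pooled ratio was 14.9 (interval 8.96 to 25.0), from 37 fragments in cluster 8 and 30 in the rest. Afp was higher in cluster 8 in both of these libraries, by 17.8-fold (9.70 to 33.5) and 9.41-fold (2.98 to 28.4), and without E13.5 the pooled ratio was 8.51.

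Alb, which encodes serum albumin, is the upstream neighbour of Afp at chr5:90460897-90476602 (plus strand). Its promoter had 23.4 CPM in cluster 8 at E13.5 and 13.8 at E15.5, against 1.48 and 2.28 in the rest. The pooled ratio was 9.57 (4.96 to 18.2), from 19 and 24 fragments. As for Afp, the ratio exceeded 1 beyond counting error in both E13.5 and E15.5, at 15.8 (6.52 to 39.7) and 6.05 (1.62 to 19.4). Without E13.5 the pooled ratio was 4.78. These intervals take each fragment as independent, and at E15.5 cluster 8 had 5 fragments. In a window reaching only 250 bp upstream, 5 fragments lay in 3 of its 38 nuclei (7.89%, 1.66 to 21.4). In the rest, 7 of 520 nuclei had one there (1.35%, 0.543 to 2.75), and the intervals of these shares overlapped.

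Ttr, which encodes the carrier of thyroid hormone and of retinol-binding protein, lies at chr18:20665280-20674321 (plus strand). Its promoter had 43.4 CPM in cluster 8 at E13.5 and 2.76 at E15.5, against 3.56 and 2.96 in the rest. The pooled ratio was 7.25 (4.33 to 11.95), but within E15.5 it was 0.931 (0.0219 to 6.20) on 1 fragment in cluster 8. The pooled value therefore rested on the E13.5 library, and without it the ratio was 0.637. Over the gene body the next level of Ttr after cluster 8 (22.8 CPM) was in cluster 9, at 12.4 CPM (9.18 to 16.4).

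Apoa1, the main apolipoprotein of high-density lipoprotein, lies at chr9:46228580-46230466 (plus strand). Its promoter had 45.1 CPM in cluster 8 at E13.5 and 2.76 at E15.5, against 9.78 and 8.21 in the rest. The pooled ratio of 3.05 (1.94 to 4.65) again came from E13.5 (4.61-fold, 2.83 to 7.32), while in E15.5 it was 0.336 (0.00829 to 1.997) on 1 fragment. Without E13.5 the Apoa1 ratio was 0.297.

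Serpina1a encodes an alpha-1-antitrypsin and belongs to a family of closely similar neighbouring copies, so reads that fit several copies can be lost or placed on another copy and its count is uncertain. It lies at chr12:103853589-103863562 (minus strand). Its promoter had 13.4 CPM in cluster 8 at E13.5 and 2.76 at E15.5, against 1.78 and 1.82 in the rest. The pooled ratio was 4.53 (1.85 to 10.1) on 9 and 24 fragments, the lowest counts of the 8 members. Within E15.5 the ratio was 1.51 (0.0341 to 11.3), again on 1 fragment, and without E13.5 the pooled ratio was 1.11.

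Among the factors, Hnf4a encodes the nuclear receptor that maintains hepatocyte gene expression and lies at chr2:163506808-163572910 (plus strand). Its promoter had 33.4 CPM in cluster 8 at E13.5 and 0 at E15.5, against 4.89 and 3.88 in the rest. In E13.5 the ratio was 6.83 (3.72 to 12.3). The 0 fragments of the 38 nuclei of E15.5 allow up to 8.28 CPM (3 counts), and the ratio in that library had an upper bound of 2.93, under the ratio of E13.5. A lower level than in the rest was not detectable at this depth. Without E13.5 the pooled ratio, 4.65 (2.63 to 7.92), was 0. Hnf4a has an upstream and a downstream start of transcription, and RefSeq places them at positions 163506857 and 163547155 of chromosome 2. Around the upstream RefSeq start the pooled ratio was 4.53 (2.61 to 7.61) and around the downstream start 4.42 (2.47 to 7.60), and each had a fragment in 10 of the 52 nuclei of E13.5. Neither had any in the 38 nuclei of E15.5.

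Foxa2, a pioneer factor of endoderm that is also expressed in the floor plate of the neural tube, lies at chr2:148042877-148046969 (minus strand). Its promoter had 38.4 CPM in cluster 8 at E13.5 and 5.52 at E15.5, against 8.15 and 8.21 in the rest. The pooled ratio was 3.21 (1.98 to 5.04), with 4.72 (2.77 to 7.80) in E13.5 and 0.673 (0.0785 to 2.61) in E15.5. Without E13.5 it was 0.686. Of the other clusters, cluster 7 had the highest Foxa2 promoter level, at 17.1 CPM against 25.6 in cluster 8, and the 2 intervals overlapped.

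Foxa3, the FOXA factor most restricted to endoderm, lies at chr7:19013284-19023538 (minus strand) and differed from the other members. Its promoter had 174 CPM in cluster 8 at E13.5 and 127 at E15.5, against 173 and 156 in the rest, a pooled ratio of 0.923 (0.776 to 1.09). Its promoter window also holds the start of Sympk, a gene for a scaffold of messenger RNA 3′ processing, which is transcribed in the opposite direction from 839 bp away. Fragments of the window cannot be assigned to either gene. In a window that reached only 250 bp upstream, chosen after these values were seen, Foxa3 had 63.3 CPM in cluster 8 and 35.5 in the rest, a ratio of 1.79 (1.28 to 2.44). By library this was 2.57 (1.78 to 3.62) in E13.5 and 0.588 (0.187 to 1.42) in E15.5. Cluster 10 (60.3 CPM, 41.0 to 85.6) and cluster 7 (58.9, 43.1 to 78.6) had levels near that of cluster 8 (46.3 to 84.4). Of the 9 other clusters, 4 had intervals below that of cluster 8, so the Foxa3 level was not particular to it. With that shorter window all 8 members were at least 1.5-fold higher in cluster 8, against 15.2% of all 18704 promoters so counted (lower bound above 1 for all 8, against 12.4%). In both E13.5 and E15.5, 4 of the 8 were (Alb, Afp, Ttr and Serpina1a; 7.47% of all), but at E15.5 Ttr (1.71, 0.0380 to 13.3) and Serpina1a (3.995, 0.0761 to 49.8) each rested on 1 fragment in cluster 8. With the libraries pooled, Serpina1a had 6 fragments in cluster 8 and 6 in the rest in this window. It met the minimum number of fragments only with those of cluster 8. Its place in the counts of 8 and 4 members is therefore partly set by the minimum. Afp reached 30.4-fold (15.6 to 63.0) and Ttr 12.54-fold (6.68 to 23.6).

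**Figure D1:**
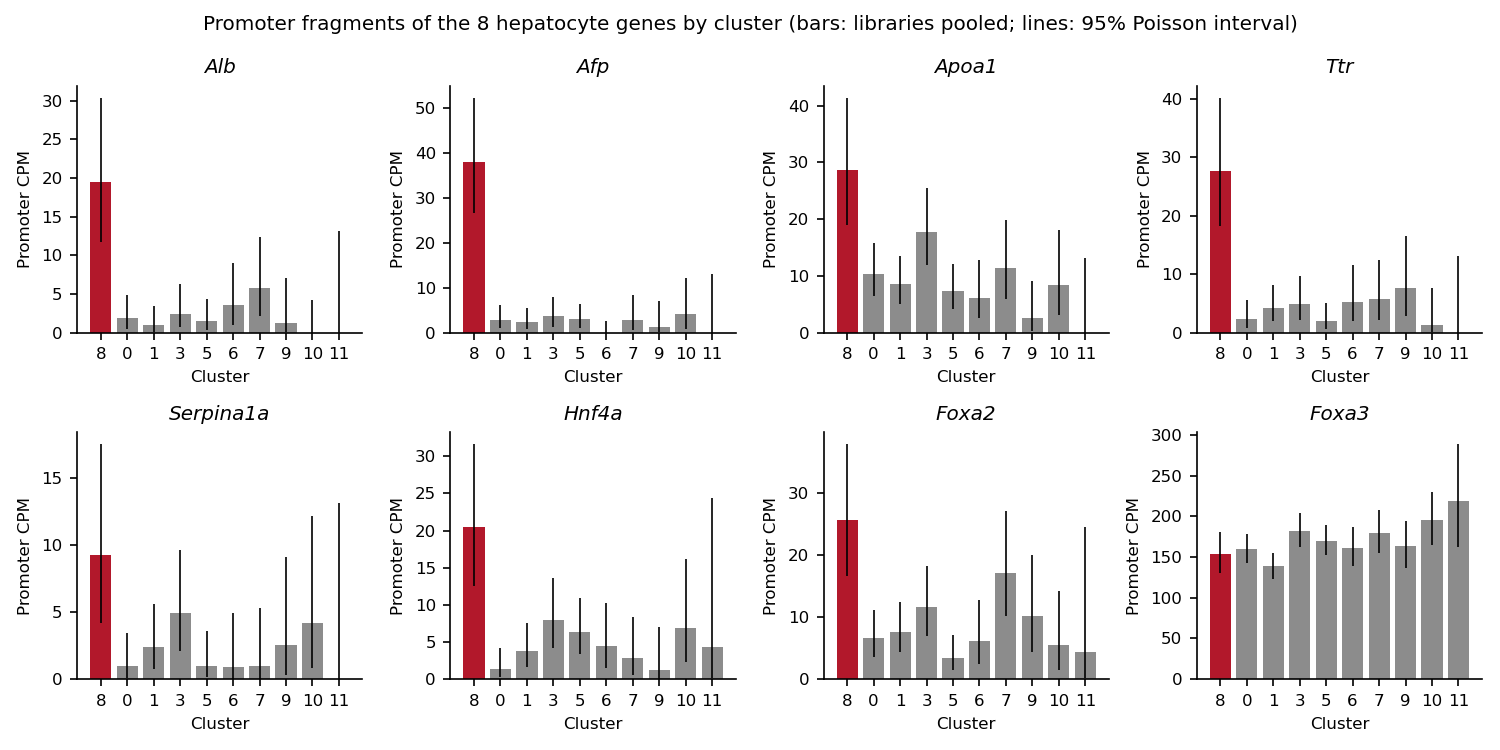
Promoter CPM of each member (vertical axes, different scales) in cluster 8 (red) and the other 9 clusters (grey), libraries pooled, with 95% Poisson intervals, or the limit of 3 counts above a bar at 0. Cluster 8 has the highest bar for every member but Foxa3, whose highest bar is cluster 11 at 219 CPM.

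The cluster-by-cluster order of the levels followed from these values. At promoters, whose windows have the same length, the level in cluster 8 with the libraries pooled ran from Foxa3 (154 CPM) through Afp (37.9), Apoa1 (28.7), Ttr (27.6), Foxa2 (25.6), Hnf4a (20.5) and Alb (19.4) to Serpina1a (9.21). Every neighbouring pair after Foxa3 had overlapping counting intervals. Within E13.5 the order was the same. Within E15.5 it ran from Foxa3 (127 CPM) through Afp (19.3), Alb (13.8) and Foxa2 (5.52) to Apoa1, Ttr and Serpina1a (2.76 each) and Hnf4a (0). Cluster 8 was highest of the 10 clusters for 7 of the 8 promoters, and for Afp and Ttr the intervals of all 9 other clusters lay below that of cluster 8. Foxa3 ranked 9 of 10.

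Over the gene body plus 2 kb upstream, 6 of the 8 members were at least 1.5-fold higher in cluster 8, against 10.6% of 20928 genes, and 7 had a lower bound above 1, against 26.2%. The ratios were 6.07 for Alb (4.96 to 7.40), 5.77 for Afp (4.99 to 6.66), 3.50 for Ttr (2.82 to 4.32), 2.83 for Serpina1a (1.81 to 4.29), 2.17 for Hnf4a (1.98 to 2.38) and 1.92 for Foxa2 (1.58 to 2.32). Apoa1, with a ratio of 1.29 (1.01 to 1.64), and Foxa3, with 0.9296 (0.821 to 1.05), did not reach 1.5-fold. The body window of Foxa3 overlaps that of Sympk, and 150 of its 282 fragments in cluster 8 lay in the shared promoter window. Without E13.5 the body ratios were 2.60 for Alb, 2.01 for Afp, 1.12 for Ttr, 1.51 for Serpina1a, 1.27 for Hnf4a, 0.582 for Foxa2 and 0.899 for Apoa1. The ratios over bodies were smaller than those at promoters for the 7 members other than Foxa3. Per kilobase of counted window, the body levels in cluster 8 ran from 4.64 CPM per kb for Foxa3, 4.27 for Foxa2 and 4.05 for Apoa1 to 1.59 for Hnf4a and 0.472 for Serpina1a. For Apoa1 the highest body level was in cluster 0 (18.7 CPM, against 15.7 in cluster 8), and for Foxa2 it was in cluster 7 (29.2 against 26.0 CPM).

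The libraries differed. Only Alb, Afp and Serpina1a were at least 1.5-fold higher in cluster 8 in both E13.5 and E15.5, at promoters (7.48% of all genes) and over bodies (4.94%). At E15.5 Serpina1a rested on 1 fragment at the promoter and 6 over the body (body ratio 1.67, 0.583 to 3.93), and both intervals include 1. For the 7 promoters without Foxa3 the summed level in cluster 8 was 247 CPM at E13.5 and 46.9 at E15.5, while the rest had 32.5 and 29.4. The ratio of E13.5 to E15.5 was thus 5.27 (3.18 to 9.29) in cluster 8 and 1.10 (0.883 to 1.38) in the rest, without a test. In E12.5, cluster 8 had only 2 nuclei and 0 fragments at all 8 promoters, which allows up to 182 CPM each, so that library is not read at promoters.

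**Figure D2:**
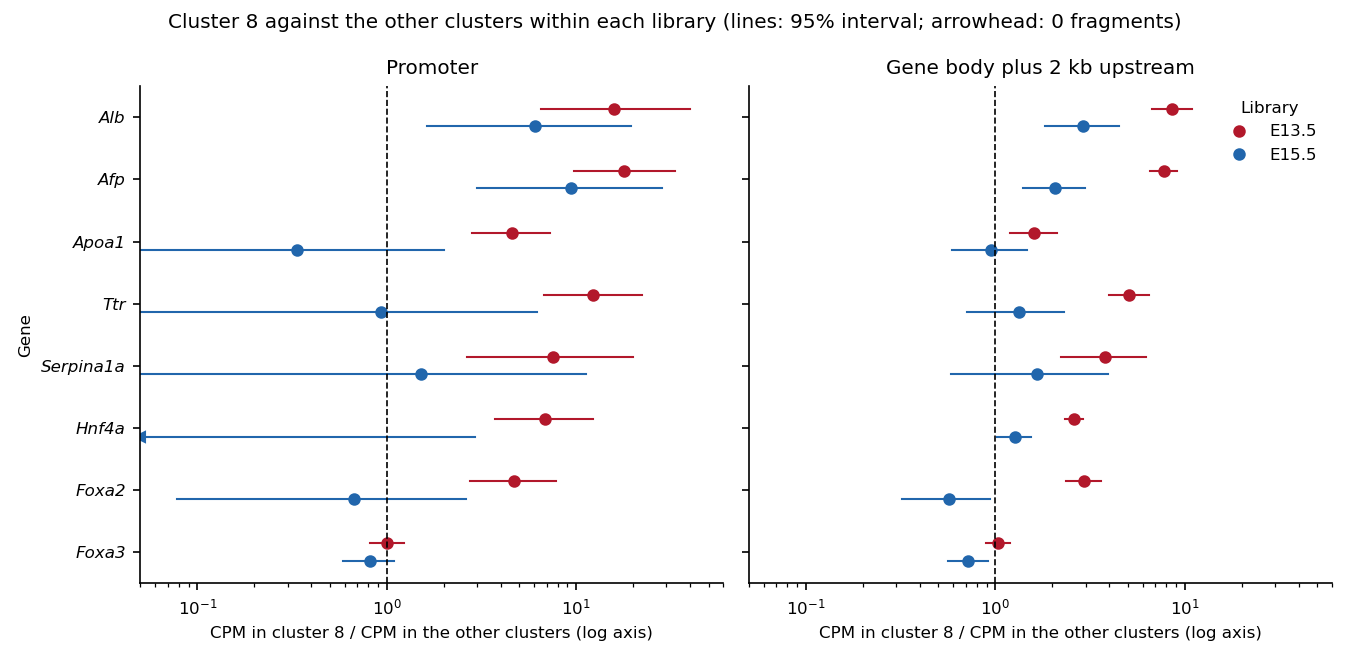
CPM in cluster 8 divided by CPM in the rest (horizontal log axis) for each member in E13.5 (red) and E15.5 (blue), with 95% intervals, at promoters (left) and over gene bodies (right). The E13.5 ratios lie above the E15.5 ratios for every member, and at E15.5 only Alb and Afp have promoter intervals above 1.

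The next question was how many nuclei held the signal. A fragment at a given promoter is seldom recovered from a given nucleus: the Alb promoter had one in 10 of the 92 nuclei of cluster 8 (10.9%), Afp in 20 (21.7%) and Foxa2 in 19 (20.7%). In neuron-like cluster 0, named from 5 of 6 neuron promoters at least 1.5-fold higher there (14.15% of all promoters were) and with a median depth of 63679 fragments, the shares were 1.48% for Alb and for Afp and 3.70% for Foxa2. The Foxa3 window, shared with Sympk, had a fragment in 65.2% of cluster 8 and 59.6% of cluster 0.

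At least 3 of the 8 promoters carried a fragment in 17 of the 92 nuclei of cluster 8 (18.5%, 11.1 to 27.9), against 25 of 1358 in the rest (1.84%, 1.20 to 2.71). By library these were 14 of 52 nuclei at E13.5 (26.9%, 15.6 to 41.0) and 3 of 38 at E15.5 (7.89%, 1.66 to 21.4), and neither of the 2 nuclei at E12.5 did so. At least 5 of the 8 were carried by 13 nuclei of cluster 8 and by 0 of the 1358 others, which allows a share of up to 0.221%. Without Foxa3, at least 3 of 7 were carried by 16 nuclei of cluster 8 (17.4%, 10.3 to 26.7) and by 3 of the rest (0.221%, 0.0456 to 0.644). Cluster 0 and cluster 6 (6 of 6 neuron promoters higher, against 10.2% of all promoters), at median depths of 63679 and 64490 fragments, had 0 of 270 and 0 of 131 such nuclei.

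Depth was matched by thinning each nucleus to 40000 fragments, a depth chosen after these values were seen, which left out 14 nuclei of cluster 8 and 324 of the rest. Then 17.6% of the 78 nuclei left in cluster 8 and 0.300% of the 1034 left in the rest carried at least 3 of the 8 promoters, as means over 100 draws. At 10000 fragments the shares were 2.41% and 0.00683%. Over gene bodies, 58.7% of cluster 8 and 49.4% of the rest had fragments in at least 3 of the 8, and 29.4% and 10.1% in at least 5. All 8 bodies had a fragment in 8 nuclei of cluster 8 and in 0 of the rest.

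**Figure D3:**
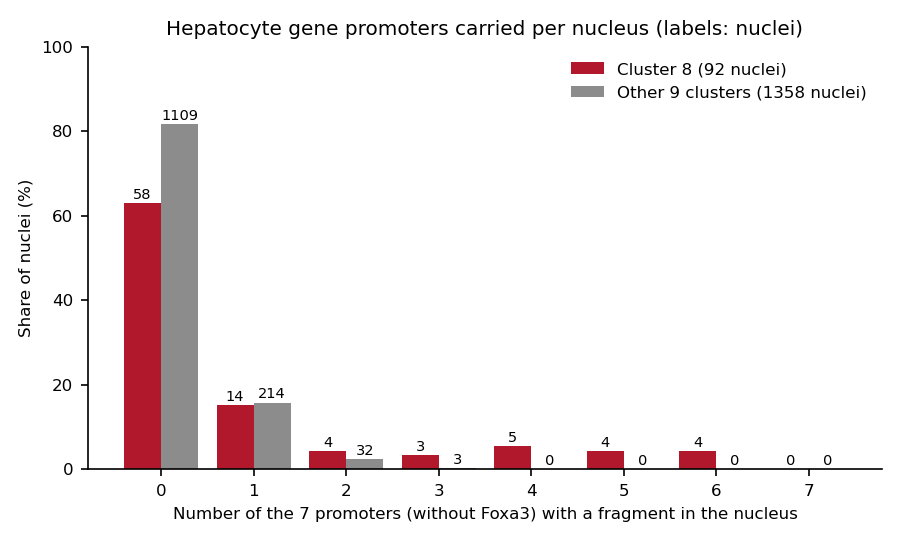
Share of nuclei (vertical axis) by how many of the 7 promoters other than Foxa3 had a fragment (horizontal axis), for cluster 8 (red) and the rest (grey), with the number of nuclei above each bar. In cluster 8, 58 nuclei had none and 16 had 3 to 6, while the rest had 3 nuclei at 3 and 0 above.

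The 17 nuclei of cluster 8 with at least 3 member promoters held most of the signal. Together they had 140 of the 165 fragments at the 7 promoters without Foxa3 in cluster 8 (84.8%), a share that their selection raised. Afp had a fragment in 16 of the 17, Foxa2 in 15, Apoa1 in 13, Ttr in 10, Alb in 9, and Serpina1a and Hnf4a in 6 each. The Foxa3 window, shared with Sympk, had one in all 17, and 1 nucleus of E15.5 had only Afp and Foxa2 besides. None of the 17 had all 8, and 4 had 7. Their median depth was 85571 fragments (49173 to 207886), against 77787 in the other 75 nuclei of cluster 8. Keeping 1 barcode of each linked group removed none of them, and 1 was among the deepest 5% of nuclei.

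In one E13.5 nucleus of 76369 fragments, for example, Alb, Afp, Apoa1 and Serpina1a had 2 fragments each, Hnf4a 5, Foxa2 3 and Ttr 0. The 3 such nuclei from E15.5 had 2, 2 and 0 fragments at the Alb promoter and 3, 2 and 1 at Afp. Of these 3, only 1 had a fragment at Foxa2, and none had any at Hnf4a. The 3 nuclei of the rest with at least 3 of the 7 promoters lay in cluster 7 (2) and cluster 9 (1), and their depths, from 96461 to 128703 fragments, were above the median of the rest.

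Whether these nuclei were open at other hepatocyte genes was examined with a wider list of 41 genes of plasma proteins, lipid transport, metabolism and liver transcription factors. The list held no member, and 40 of its genes were counted. A nucleus of the 17 had a fragment at a median of 17 of the 40 promoters (7 to 28), against 4 (0 to 15) in the other 75 nuclei of cluster 8 and 4 (0 to 14) in the rest. The 25 nuclei of the rest with at least 3 of the 8 promoters, chosen by the same rule, had a median of 6 (3 to 14). Summed over the 40 promoters, the level was 2355 CPM in the 17 nuclei and 756 in the other 75, a ratio of 3.11 (2.77 to 3.50). Over gene bodies, where all 40 had enough fragments, 39 were at least 1.5-fold higher in the 17 nuclei, against 18.6% of 18887 genes, with a median ratio of 3.12 against 0.973. Over bodies the exception was Tdo2, an enzyme of tryptophan breakdown, at 2.84 against 7.69 CPM. At promoters more genes of the list had lower levels in the 17 nuclei. Igf2, a fetal growth factor, had 4.07 against 27.4 CPM (ratio 0.149, 0.00359 to 0.9295), and Apoh, which encodes beta-2-glycoprotein I, had 4.07 against 21.9 (0.186, 0.00443 to 1.20). Mttp, which loads lipid onto lipoproteins, had 12.2 against 32.8 (0.372, 0.0716 to 1.22), and Prox1, a factor of hepatoblasts and of lymphatic endothelium, had 20.3 against 38.3 (0.531, 0.160 to 1.39). Tdo2 had 0 and 2 fragments there. Since the 17 were chosen on the 8 members, the members' own ratios between these sets are not given.

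Plasma and clotting protein genes of the list had the largest difference. Their summed promoter level was 797 CPM in the 17 nuclei and 130 in the other 75, a ratio of 6.13 (4.78 to 7.92). Plg, the precursor of the clot-dissolving enzyme plasmin, had 130 against 4.103 CPM. Fgg, a fibrinogen chain, had 25 fragments (102 CPM) in the 17 nuclei and 0 in the others, and Fgb, another chain, had 73.2 against 6.84 CPM. For lipid transport genes the summed ratio was 2.30 (1.74 to 3.03), for enzymes and growth genes 1.97 (1.41 to 2.74) and for transcription factors 2.79 (2.31 to 3.36). Nr5a2, a nuclear receptor of bile acid and cholesterol metabolism, had 93.5 against 2.74 CPM, and Fabp1, the liver fatty acid-binding protein, had 73.2 against 5.47.

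In cluster 8 as a whole against the rest, the wider list gave smaller ratios. At promoters 21 of 39 genes tested were at least 1.5-fold higher and 4 as much lower, with a median ratio of 1.95 against 0.963 over all genes. Of all promoters, 15.2% were as much higher and 23.3% as much lower. Without E13.5 the number higher on the list fell to 11. The highest were Fabp1 (9.85, 5.35 to 18.0), Nr5a2 (9.45, 5.37 to 16.5), Plg (7.56, 4.81 to 11.7), Fgb (7.52, 4.26 to 12.99) and Fgg (6.17, 3.65 to 10.2). The lowest were Dlk1 (0.534, 0.227 to 1.08), Gpc3 (0.533, 0.327 to 0.825) and Itih2 (0.465, 0.0549 to 1.77). Dlk1 and Gpc3 mark hepatoblasts but are also expressed in mesenchyme. Cluster 3 also had list promoters at least 1.5-fold higher than in the other clusters, 4 of 6 for lipid transport, 5 of 9 for enzymes and growth, 4 of 14 for plasma and clotting proteins and 3 of 11 for transcription factors, where 35.4% of all promoters were.

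White blood and endothelial markers were lower in the 17 nuclei than in the other 75. All 8 white blood cell promoters were at least 1.5-fold higher in cluster 8 than in the rest (median 3.73), and so were 7 of 8 endothelial promoters (median 3.12), against 15.2% of all promoters. These lists were chosen with earlier results of these data known, so the counts are a description. Their summed levels were 48.8 CPM (white blood) and 40.7 CPM (endothelial) in the 17 nuclei, against 234 and 319 CPM in the other 75, ratios of 0.209 (0.106 to 0.374) and 0.128 (0.0604 to 0.239). At least 3 white blood promoters had a fragment in 0 of the 17 nuclei, which allows up to 17.6%, and in 14 of the other 75. For endothelial promoters these were 0 of 17 and 18 of 75. Tie1, an endothelial receptor, had a fragment in 2 of the 17 and 27 of the 75, and Lyz2, the lysozyme of macrophages and granulocytes, in 1 and 18. Of the other lists, the epithelial and endoderm list summed to 175 CPM in the 17 nuclei against 73.9 in the other 75 (2.37, 1.55 to 3.601). The keratin gene Krt8, at 77.3 against 17.8 CPM, gave 19 of the 43 fragments of the list in the 17 nuclei, and Sox17, an endoderm and endothelial factor, had 8.13 against 17.8 CPM. The erythroid list had 81.3 against 105 CPM (0.772, 0.447 to 1.28). In cluster 8 against the rest, where 23.3% of all promoters were at least 1.5-fold lower, the erythroid, choroid plexus, muscle, neuron and mesenchyme lists had medians below 1. Of 8 erythroid promoters 5 were lower and 1, Gata1, higher (2.84, 0.696 to 8.72, on 4 fragments), with a median ratio of 0.361. Of 8 choroid plexus and floor plate promoters 5 were lower and 1, Folr1, higher (1.93, 0.957 to 3.58), with a median of 0.579. The highest muscle, neuron and mesenchyme promoters, from lists with medians of 0.581, 0.276 and 0.274, were Tnnt3 (1.49, 0.901 to 2.36), Elavl4 (0.640, 0.368 to 1.04) and Twist2 (0.634, 0.372 to 1.02). Cluster 8 is called by its number because it mixed these markers.

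**Figure D4:**
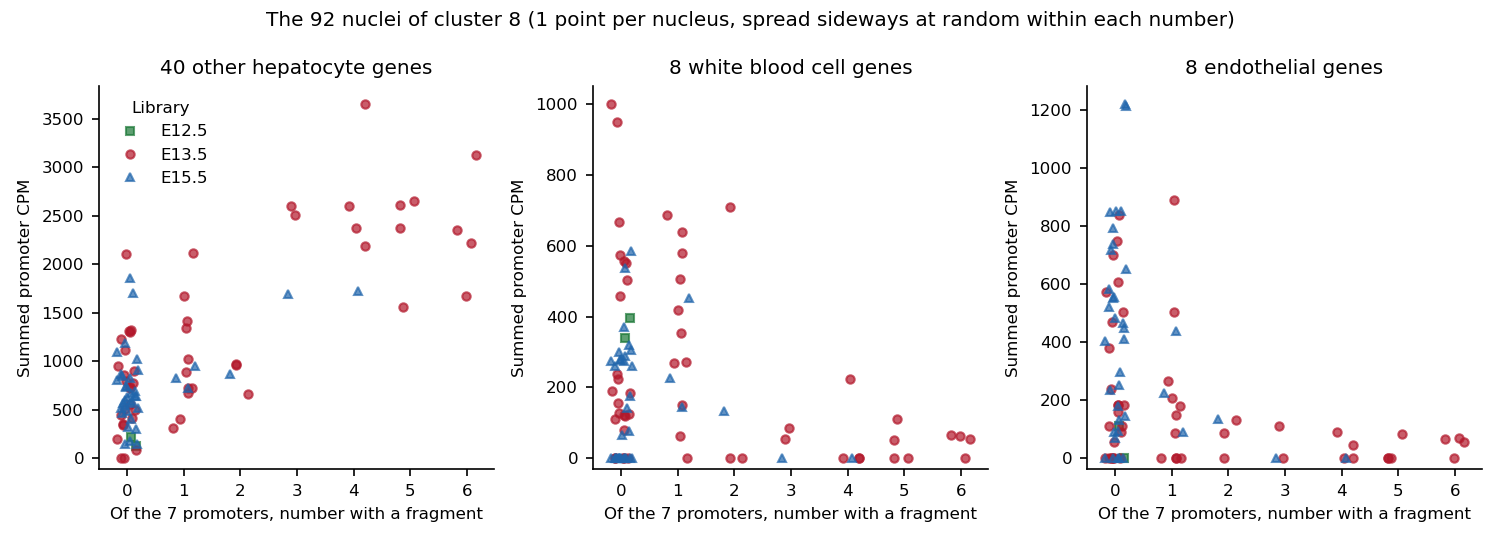
Each of the 92 nuclei of cluster 8 by the number of the 7 promoters it carried (horizontal axes) and its summed promoter CPM over the wider hepatocyte list, the white blood list and the endothelial list (vertical axes), by library. The 16 nuclei with 3 or more member promoters lie between 1561 and 3655 CPM for the wider list and at or below 223 CPM for the white blood list. The other nuclei overlap them, reaching up to 2114 CPM for the wider list, and many also lie at or below 223 CPM for the white blood list.

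Where along the genes the fragments lay was described in 1 kb bins within 50 kb of each start. Bins with at least 30 fragments over all 1450 nuclei, cluster 8 included, numbered 484 around the members. Of these, 104 were at least 3-fold higher in cluster 8, against 4.14% of the 1161019 such bins of the genome. They were unevenly shared: 35 of 41 bins around Alb, 31 of 34 around Afp, 12 of 61 around Ttr, 11 of 82 around Hnf4a, 9 of 99 around Apoa1, 6 of 67 around Foxa2 and 0 of 100 around Foxa3. No bin around Serpina1a reached 30 fragments. The minimum also counts cluster 8, so a bin poor in fragments can reach it only where cluster 8 is high. Around Alb and Afp, 41 and 34 of 100 bins reached it, and most raised bins had under 30 fragments in the rest. Some raised bins around Ttr, Foxa2 and Hnf4a did too, such as 18 to 19 kb after the Ttr start (22 fragments in the rest). Another was 35 to 36 kb after the Foxa2 start (23 fragments). The shares of all these genes, and the 104 of 484 that they enter, are therefore partly set by the minimum and are not read as a result. The starts of Alb and Afp are 29840 bp apart, so the stretches around them share DNA and their counts are not independent.

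Raised bins lay at the promoters and in the bodies of Alb and Afp, in the 14135 bp between them and outside the pair. Bins at member promoters overlap the windows that chose the 17 nuclei, so how their fragments split within cluster 8 is not read. The bin that holds the Afp start and its upstream bases, 29 to 30 kb after the Alb start, was 18.3-fold higher in cluster 8. Beyond the end of Afp, 19 to 20 kb after its start, the ratio was 23.2, with 18.6 CPM of all unique fragments in the 17 nuclei, 0.949 in the other 75 and 0.192 in the rest. Upstream of Alb, from -30 to -29 kb, it was 22.4, with 12.2, 0.475 and 0.125 CPM. Another upstream bin, from -41 to -40 kb of the Alb start (6.935-fold), had 0 fragments in the 17 nuclei and 11 in the other 75. Between the genes, from -14 to -13 kb of the Afp start, the ratio was 15.1. Each bin named in this paragraph had under 30 fragments in the rest and met the minimum only with those of cluster 8. The bin from -30 to -29 kb of the Alb start, for example, had 22 in cluster 8 and 13 in the rest. Their high ratios are therefore partly set by the minimum.

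Around Hnf4a the 11 raised bins were set apart. They lay at the upstream start (-1 to 0 kb, 4.002-fold, and 0 to 1 kb, 3.23-fold), at 40 to 41 kb (5.08-fold), the bin of the downstream start, and at 32 to 35 kb (11.7-, 5.25- and 6.62-fold in 3 adjoining bins), 48 to 50 kb (5.02- and 3.68-fold), 46 to 47 kb (3.92-fold), 9 to 10 kb (7.04-fold) and -7 to -6 kb (3.53-fold). The bin from 32 to 33 kb had 25 fragments in the rest and met the minimum of 30 only with those of cluster 8. From 32 to 35 kb the 17 nuclei had 10.9, 13.4 and 14.7 CPM and the other 75 had 0.791, 0.633 and 0.633. From 48 to 50 kb they had 12.2 and 6.40 against 0.949 and 0.791. In the other 3 bins the levels lay closer, at 2.56 against 3.32 CPM from 9 to 10 kb, 3.20 against 1.74 from 46 to 47 kb and 1.28 against 0.949 from -7 to -6 kb, on 2 to 5 fragments in the 17 nuclei. Near Apoa1, the most raised bin, 29 to 30 kb after the start (7.60-fold), had 0 fragments in the 17 nuclei and 35 in the others.

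**Figure D5:**
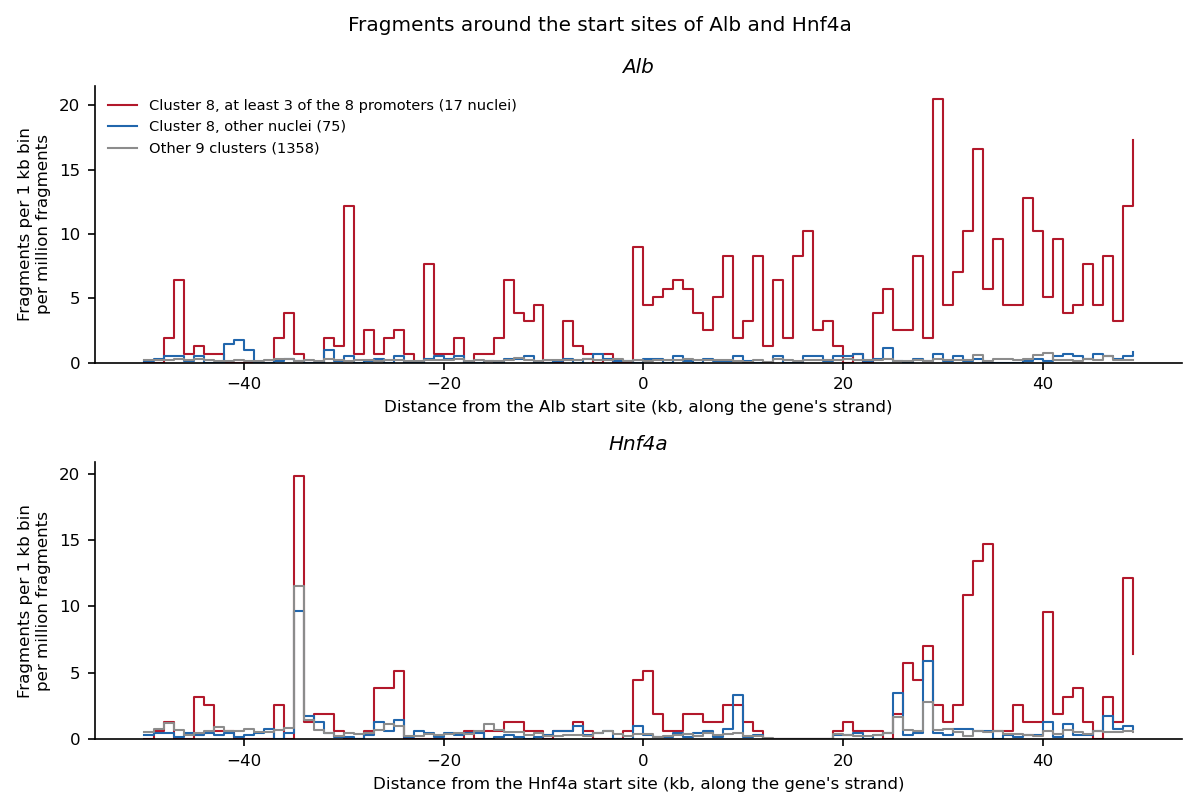
Fragments per 1 kb bin as CPM of all unique fragments (vertical axes) by distance from the start of Alb and of Hnf4a (horizontal axes), for the 17 nuclei of cluster 8 with at least 3 member promoters, its other 75 nuclei and the rest. The Afp start is in the bin from 29 to 30 kb of the Alb panel, and bins at member promoters are high in the 17 nuclei by their selection. Away from the promoters, the 17 nuclei reach 12.2 CPM from -30 to -29 kb of the Alb start and 10.9 to 14.7 CPM from 32 to 35 kb of the Hnf4a start.

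The genes whose promoter levels most resembled the mean of the members were sought over 24 sums (cluster by library, each of at least 10 nuclei), as a correlation of log2(CPM + 1) with no test. Sums of a library share its depth and preparation, and cluster 8 contributes 2 of the 24. They were Ccdc68 (Pearson's r 0.80), Mogat2 (0.785), Tmprss6 (0.779), Tead4 (0.774) and Cyp27a1 (0.769). Tmprss6 is the liver protease that regulates hepcidin, Cyp27a1 an enzyme of bile acid synthesis, Mogat2 an acyltransferase of fat absorption in the intestine and Tead4 a factor of the Hippo pathway. Over gene bodies the most alike were Ikbke (0.903), Cda (0.899) and Pik3ap1 (0.894), of which Ikbke and Pik3ap1 act in signalling of immune cells and Cda in pyrimidine salvage. Of the members themselves, Ttr (0.748) and Apoa1 (0.727) were closest to the mean at promoters and Foxa3 was farthest (-0.08). Each member is part of that mean, so these values cannot be compared with those of other genes.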

How the data were processed

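The authors deposited, for each library, a list of unique fragments with a count of the read pairs behind each, made with Cell Ranger ATAC 2.0.0 on mm10 per the file headers, and a table with the cluster number and whole-number fragment counts of each nucleus. The submitters' notes also name Seurat 4.1.0 and Signac 1.6.0. The study's methods describe joining the nuclei to its spatial profiles by integration anchors and Harmony. They mention clusters that came from this integration and were mapped onto the spatial sections. They do not state if the cluster numbers used here are those, or with what clustering settings they were made. Of the table, 20 columns were not used.

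Each fragment was counted once in every window it overlapped (no further Tn5 shift), with gene models of GENCODE vM21, which are on the build of the files. Of 21938 protein-coding genes, 91 of the Pcdh and Ugt families and 228 spanning over 500 kb were left out. Where entries shared a gene name only the first was kept, which left 21593. Recomputed totals differed from the deposited tallies by at most 0.604% in any nucleus. The median depth was 30239, 62902.5 and 43485.5 fragments per nucleus in stage order, and the libraries shared at most 1 barcode. Doublets were not removed, and leaving out the deepest 5% of nuclei served as an alternative. Barcodes sharing at least 10% of identical fragments were called linked.

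The members and lists were chosen with earlier results of these data known. Genes of the wider list were named by rule: the 5 highest and the 3 lowest promoter ratios with at least 20 fragments, and the highest of every other list. Tdo2, Igf2, Apoh, Mttp and Prox1 were named after their values were seen. The calculation of ratios and intervals was checked on simulated counts. Python 3.11.15, numpy 2.4.6, pandas 2.3.3, scipy 1.17.1 and matplotlib 3.10.9 were used.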

Additional observations from a re-analysis of the deposited data

Results flagged for a closer look

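The ratio of cluster 8 to the rest lay above 1 at E13.5 and below 1 at E15.5 for several members, and these differences between stages were not tested. At promoters the ratios at E13.5 and E15.5 were 4.613 and 0.3363 for Apoa1, 12.22 and 0.9312 for Ttr, 6.834 and 0 for Hnf4a, and 4.715 and 0.6725 for Foxa2. Over gene bodies they were 1.607 and 0.9541 for Apoa1, 2.934 and 0.5713 for Foxa2, and 1.036 and 0.7205 for Foxa3. The Hnf4a and Ttr bodies did not fall below 1. For Hnf4a the body ratio at E15.5 was 1.27 (1.02 to 1.55) on 102 fragments in cluster 8, after 2.60 at E13.5. For Ttr it was 1.33 (0.707 to 2.31) on 14, after 5.09. The promoter ratios at E15.5 rest on 0 to 2 fragments in cluster 8, whereas the Foxa2 and Foxa3 body ratios rest on 16 and 73, and their intervals (0.323 to 0.941 and 0.561 to 0.9125) lie below 1. For Foxa3, 46 of the 73 lay in the promoter window shared with Sympk, so they cannot be assigned to either gene. The Foxa3 body interval at E13.5 (0.894 to 1.19) includes 1.

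Barcodes with at least 1000 fragments that are not in the deposited cell table also held fragments at the 7 member promoters without Foxa3. There were 90 such fragments in 546 barcodes at E13.5 and 47 in 272 barcodes at E15.5, against 0 in 36 at E12.5. At least 3 member promoters, with Foxa3 included, were carried by 3 of these barcodes at E13.5 and 2 at E15.5. This was not counted for the 7 alone. The barcodes have no cluster number and entered no comparison.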

How the results depend on the processing

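The summed body ratio of the 8 members, 2.01, was 2.15 with all unique fragments as denominator and 1.06 to 2.50 when a library was left out, lowest without E13.5. The summed promoter ratio, 1.62, was 4.50 with the window of 250 bp and 0.877 to 1.99 when a library was left out. It fell below 1 only without E13.5. When a library was left out, the ratio ranged from 0.899 to 1.51 for the Apoa1 body and 0.582 to 2.89 for the Foxa2 body, and at promoters from 0.297 to 4.35 for Apoa1, 0.637 to 9.82 for Ttr, 0 to 6.90 for Hnf4a and 0.686 to 4.79 for Foxa2, each lowest without E13.5 and highest without E15.5. The Foxa3 body ranged from 0.714 (without E13.5) to 1.03 (without E15.5), and the Foxa3 promoter turned with all fragments as denominator (1.01) and with 250 bp (1.79). The share of cluster 8 with several members, 18.5%, was 30.4% for at least 2 promoters, 58.7% for bodies and 2.41% at 10000 fragments per nucleus. The number of wider-list promoters higher in cluster 8 was 11 to 25 when a library was left out, the wider-list ratio between nuclei of cluster 8 was 2.69 when at least 2 promoters defined the set, and 787 genes in place of 3078 passed 3-fold. Among single members, 73 values over bodies and 74 at promoters moved by less than counting error, and 12 and 9 moved by more in the same direction. The causes of these changes were not tested. The 250 bp window, the downstream Hnf4a start, the 7 promoters without Foxa3 and the thinning to 40000 fragments were chosen after seeing the data. No paired analysis was possible because these ratios come from no test. Cluster 8 and the rest share each library, and the report gives the ratios within libraries.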
